A study of Mus musculus with 9 samples.

Results

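Tropomyosins, caldesmon, filamin A and the α-actinins are the proteins that line actin filaments, hold them in register or tie them together. To see which of their start sites and which neighboring regions carried active histone marks in oviductal muscle, all peaks at 8 genes were collected: Tpm1, Tpm2, Tpm3, Tpm4, Cald1, Flna, Actn1 and Actn4, out of 21853 protein-coding genes. The members were chosen by name. Every peak that overlapped one of these genes or the 25 kb on either side was taken from 6 replicate and 2 pooled lists and sorted into promoter peaks (overlapping the window of 1 kb on each side of an annotated start, internal starts included), intragenic peaks and flanking peaks. The 8 loci spanned 847.546 kb and contained 18 promoter regions, each a start or a cluster of starts whose windows ran together.

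The cells were primary oviductal muscle cells of WT mice aged 8 to 12 weeks on D2 of pregnancy after mating. The oviduct was digested with trypsin, collagenase and dispase, and the filtered cells were plated in medium with serum for some hours before the assay, so the marks are those of briefly cultured cells. ChIC-Seq, in which an antibody leads protein A-MNase to cut around its target, was run with antibodies to H3K27ac and H3K4me1 and with IgG, 3 samples each. Every sample was WT on the same day, so the comparisons open to these data are between the marks, between the genes and between the starts of a gene. The labels do not say whether the replicates were separate animals, so p-values measure only the spread between these samples.

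H3K27ac, acetylation of lysine on the tail of histone H3, is typical of active promoters and active enhancers. H3K4me1 lies at enhancers and on the shoulders of active promoters, and is usually low over the start itself. Tropomyosins are coiled-coil proteins that polymerize along the actin filament and regulate access of myosin. Tpm1 and Tpm3 each have a 5′ start that opens long isoforms and an internal start that opens short cytoskeletal isoforms. Caldesmon (Cald1) binds actin and myosin and restrains the contraction of smooth muscle, while filamin A (Flna) and α-actinins 1 and 4 (Actn1, Actn4) crosslink filaments and anchor them at adhesions and dense bodies.

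The replicate calls used 40551842 to 78891920 treatment fragments but only 3110985 to 3713369 IgG fragments, and each replicate list held 93684 to 152889 peaks, so these are permissive lists of weak enrichments. Median fold enrichment over IgG was 1.43 to 1.62. Some calls shared their control: IgG replicate 2 served H3K27ac replicate 2 as well as H3K4me1 replicates 1 and 2, and IgG replicate 3 served replicate 3 of both marks. Within the 8 loci, lists of different marks overlapped more when they shared an IgG library (Jaccard index, shared over total bases, 0.452 to 0.475) than when they did not (0.300 to 0.327), and the part of the shared control in the results was not tested. Of 9 smooth muscle marker genes, 3 (Acta2, Des and Smtn) had a promoter H3K27ac peak in all 3 replicates and Myh11, the smooth muscle myosin heavy chain, had none, against 7 of 8 fibroblast and stromal markers. Among the other marker lists, 0 of 8 epithelial, 1 of 6 blood cell (Ptprc), 0 of 5 endothelial and 1 of 8 striated muscle genes (Actn3) had H3K27ac in all 3. The share of cells that carry a mark and its level per cell cannot be told apart in these bulk libraries.

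All 8 genes had H3K27ac at one or more promoter regions in all 3 replicates. Among all protein-coding genes the share was 45.9%, and among the 6433 genes with 2 or more promoter regions it was 53.1%. H3K4me1 was called at a promoter region in all 3 replicates in 4 genes (Tpm1, Tpm3, Cald1 and Actn4; 27.9% of all genes), each of which also had H3K27ac in all 3 (24.3% of all genes, and 34.6% of genes with at least 2 promoter regions, as these 4 have). By region, 12 of 18 carried H3K27ac in all 3 replicates (35.0% of all promoter regions), 6 of 18 carried H3K4me1 (21.7%) and 5 carried both (17.4%). No peak of either mark in any replicate was found at 5 of the 18 regions (40.7% of all regions), but 0 of 8 genes lacked one altogether (32.8% of all genes). When the authors' −log10 p-value had to reach 1.3, H3K27ac was in all 3 replicates at 8 regions of 6 genes, with Tpm2 and both Flna starts left in 2 of 3 lists and region 2 of Actn4 in 1, and H3K4me1 at 1 region, the internal start of Tpm3. Shares over all promoter regions were not computed under this filter, so the filtered counts cannot be set against other genes.

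First and later regions were then counted apart. Of the 8 first regions, 7 had H3K27ac in all 3 replicates and 1 had H3K4me1 (Cald1). Over all genes these shares were 43.2% and 23.7%. Of the 10 later regions, 5 had H3K27ac and 5 had H3K4me1 in all 3, with shares over all later regions of 15.2% and 16.7%. The 4 later regions that were bare in every list were those at Cald1, Flna (2 regions) and Actn4 whose only starts belong to transcript models with an incomplete 5′ end. This split was made after the values were seen; over all genes, 62.8% of such later regions and 48.9% of those with a complete start were bare.

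**Figure D1:**
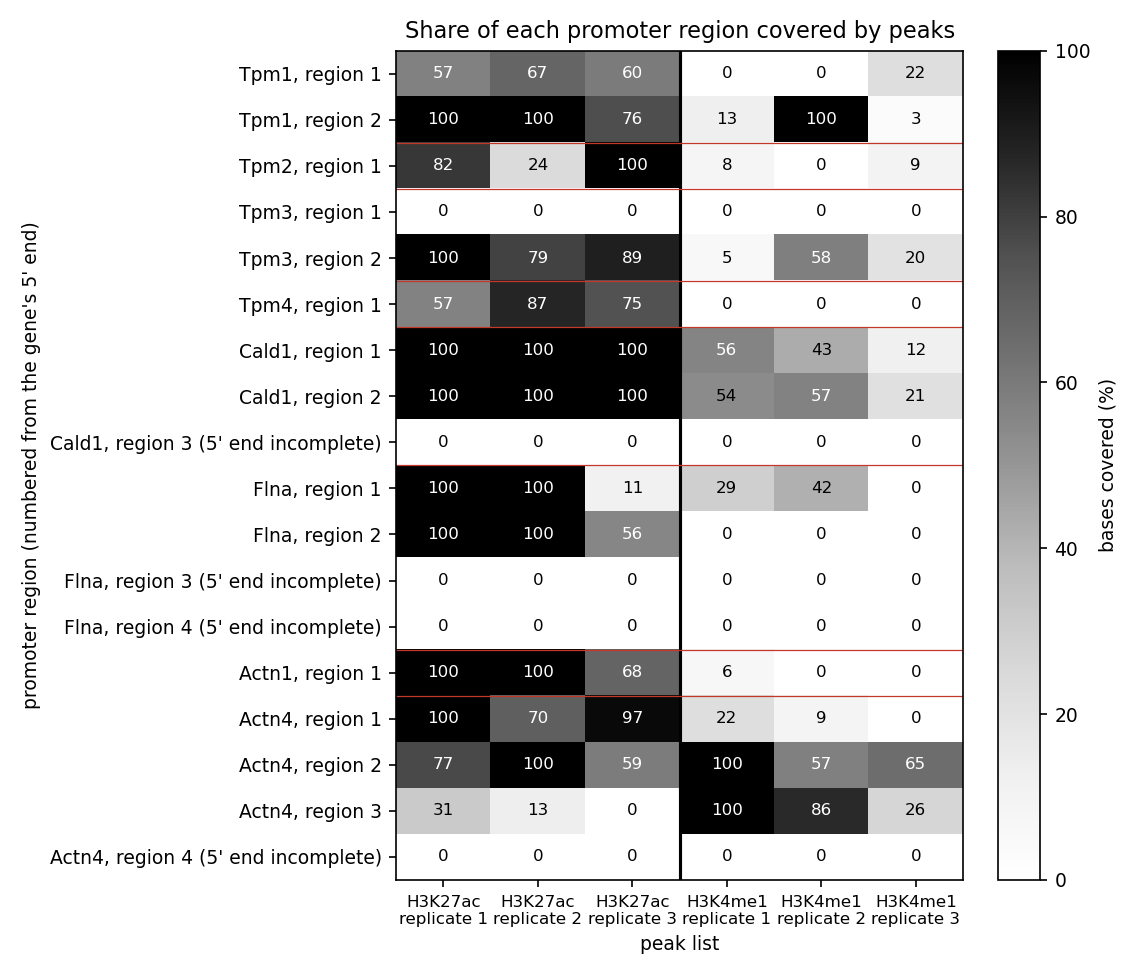
Percentage of bases of each of the 18 promoter regions (rows, numbered from the 5′ end of the gene) that lay in peaks of each of the 6 replicate lists (columns); darker is more covered. Regions 1 and 2 of Cald1 are at 100 in every H3K27ac list, the first Tpm3 region and the regions with an incomplete 5′ end are at 0 throughout, and region 3 of Actn4 is the one row darker under H3K4me1.

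Of the tropomyosin genes, Tpm3 was the one with a complete start that carried no peak. Its 5′ start, which opens the slow-muscle isoform (chr3:90071649-90073651, GRCm38), was covered 0% in all 6 replicate lists and in both pooled lists. Its internal start region, 6891 bp into the gene (chr3:90078540-90081442), was covered 100%, 79.1% and 89.4% by H3K27ac in replicates 1, 2 and 3, and 5.20%, 57.9% and 19.6% by H3K4me1. Every H3K27ac list was therefore above every H3K4me1 list at the internal start, with no overlap (mean 89.5% ± 10.5 against 27.6% ± 27.3, SD, n = 3; exact permutation test, two-sided, p = 0.1, the smallest that 3 against 3 lists allow). The strongest H3K27ac peak of each list there had 2.19- to 2.51-fold enrichment and lay at the 97.3 to 99.5 percentile of fold in its list, and the strongest H3K4me1 peak of each list at the 94.9 to 97.7 percentile.

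The 300 bases around each Tpm3 start are shown because one start was bare and the other carried both marks (RefSeq promoters, build GRCm38.p6, plus strand, 250 bases before to 50 after the start). Capitals mark the GC box GGGCGG on either strand, the AP-1 motif TGANTCA, the TEAD motif GGAATG, the letters TATAAA and the CArG box, the binding motif of serum response factor.
Tpm3 5′ start, chr3:90072401-90072700: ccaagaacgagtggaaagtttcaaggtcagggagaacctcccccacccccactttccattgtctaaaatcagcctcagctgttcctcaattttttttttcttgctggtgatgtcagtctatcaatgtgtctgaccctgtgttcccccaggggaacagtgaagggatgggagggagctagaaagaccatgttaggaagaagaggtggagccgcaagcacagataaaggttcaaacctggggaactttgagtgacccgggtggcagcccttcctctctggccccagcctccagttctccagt
Tpm3 internal start, chr3:90079271-90079570: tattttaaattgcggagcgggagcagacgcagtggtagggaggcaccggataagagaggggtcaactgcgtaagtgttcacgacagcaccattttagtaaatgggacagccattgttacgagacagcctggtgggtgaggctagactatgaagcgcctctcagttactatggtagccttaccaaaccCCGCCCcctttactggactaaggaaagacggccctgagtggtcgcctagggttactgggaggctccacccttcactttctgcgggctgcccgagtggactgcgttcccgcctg
The bare start held 3 CpG dinucleotides (23.3 percentile of 32851 RefSeq promoters) and none of the 5 motifs. The marked start held 15 CpG (65.4 percentile) and 1 GC box.

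In Tpm1 both starts were acetylated. The 5′ region (chr9:67048143-67050406) was covered 57.4%, 67.3% and 59.7% by H3K27ac and 0%, 0% and 22.1% by H3K4me1. The internal region, 5444 bp into the gene (chr9:67042709-67044962), was covered 100%, 100% and 76.0% by H3K27ac and 13.0%, 100% and 3.33% by H3K4me1, whose replicate 2 thus stood far above the other two. Coverage by the marks did not overlap between the groups at the 5′ start (p = 0.1, exact permutation test, n = 3) but did at the internal start (p = 0.4, exact permutation test, n = 3). No promoter of another protein-coding gene lay within 25 kb of Tpm1.

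Tpm2, which encodes β-tropomyosin, had 1 promoter region (chr4:43522388-43524765). H3K27ac covered 82.0%, 23.5% and 100% of it and H3K4me1 8.12%, 0% and 9.42%. The H3K27ac values varied more between replicates (SD 40.0) than at any other region with a peak in all 3, apart from the first Flna region (SD 51.3), and still lay above all 3 H3K4me1 values.

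Tpm4, the cytoskeletal tropomyosin, had a single start (chr8:72134259-72136259) covered 56.7%, 87.5% and 74.7% by H3K27ac and not at all by H3K4me1 in the replicate lists. In each replicate list its H3K27ac peak had the highest fold of the promoter peaks at these genes, with 2.38- to 2.75-fold enrichment (98.8 to 99.9 percentile of their lists) over 3343 to 5866 bp. H3K4me1 began only further inside the gene, at about the same distance from the start in all 3 lists in the map of the loci. The Tpm4 promoter is shown as the one with the highest fold and no H3K4me1 in a replicate list (the pooled list covered 13.3% of the region); it held 31 CpG (89.4 percentile) and 5 GC boxes, in capitals.
Tpm4 start, chr8:72135038-72135337, plus strand: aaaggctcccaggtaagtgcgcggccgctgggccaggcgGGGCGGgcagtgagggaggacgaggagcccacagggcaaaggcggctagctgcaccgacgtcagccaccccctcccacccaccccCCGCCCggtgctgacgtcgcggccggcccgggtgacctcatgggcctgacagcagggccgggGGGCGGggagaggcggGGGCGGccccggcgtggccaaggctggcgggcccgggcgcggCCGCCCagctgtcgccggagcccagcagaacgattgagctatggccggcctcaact

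Caldesmon was marked over both of its complete starts, which lie 110942 bp apart. H3K27ac covered 100% of the first region (chr6:34597500-34599565) and 100% of the internal region (chr6:34708442-34710634) in all 3 replicates. H3K4me1 covered 56.2%, 42.7% and 12.4% of the first and 53.7%, 56.9% and 21.02% of the second. These were the only member regions fully acetylated in every list, and H3K4me1 replicate 3 was the lowest at both. The Cald1 promoters held fewer CpG than that of Tpm4, with 6 and 5 (43.6 and 38.0 percentile), and are shown for that contrast.
Cald1 first start, chr6:34598254-34598553, plus strand: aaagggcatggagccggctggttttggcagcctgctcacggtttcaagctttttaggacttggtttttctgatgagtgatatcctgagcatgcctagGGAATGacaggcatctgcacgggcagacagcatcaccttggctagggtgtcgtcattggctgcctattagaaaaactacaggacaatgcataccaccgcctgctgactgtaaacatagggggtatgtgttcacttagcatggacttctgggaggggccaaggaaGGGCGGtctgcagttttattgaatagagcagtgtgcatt
Cald1 internal start, chr6:34709194-34709493, plus strand: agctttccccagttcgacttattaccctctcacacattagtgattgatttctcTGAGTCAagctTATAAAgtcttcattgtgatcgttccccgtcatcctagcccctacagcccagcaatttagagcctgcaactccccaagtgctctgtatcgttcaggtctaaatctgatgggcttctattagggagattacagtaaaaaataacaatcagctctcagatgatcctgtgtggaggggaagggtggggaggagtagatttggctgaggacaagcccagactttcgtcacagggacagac
The first held 1 TEAD motif and 1 GC box. The internal one held 1 AP-1 motif and 1 TATAAA.

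Among the crosslinkers, Actn1 had 1 promoter region (chr12:80259091-80261371) covered 100%, 100% and 67.7% by H3K27ac and 5.96%, 0% and 0% by H3K4me1. The balance of the marks differed between the starts of Actn4. Its first region (chr7:28961223-28963340) was covered 100%, 69.8% and 96.5% by H3K27ac and 21.9%, 9.21% and 0% by H3K4me1. At the start 12581 bp inside the gene the lists of the marks overlapped, with 78.7% ± 20.5 for H3K27ac and 74.1% ± 22.7 for H3K4me1 (SD, n = 3). At the start 43119 bp inside the order turned, with 31.5%, 13.3% and 0% for H3K27ac against 100%, 86.3% and 26.4% for H3K4me1, although the lowest H3K4me1 list lay below the highest H3K27ac list (p = 0.2, exact permutation test, n = 3).

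Flna on the X chromosome was acetylated at its first start (chrX:74248820-74250820; 100%, 100% and 11.1%) and at the start 3265 bp inside (chrX:74245364-74247555; 100%, 100% and 55.7%). H3K27ac replicate 3 was the low list at both. H3K4me1 covered 29.3%, 41.6% and 0% of the first region and none of the second, where the pooled H3K4me1 list covered 26.4%. Under the −log10 p-value filter at 1.3, H3K27ac peaks were left in 2 of 3 lists at each Flna start.

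Among the 10 RefSeq promoters that matched the 8 genes, the GC box was present in 8, against 35.7% of all 32851 promoters of this length. The TEAD letters were in 4 (14.7%), AP-1 in 2 (7.81%), TATAAA in 1 (13.6%) and an exact CArG box in 0 (1.63%). Matches were searched on both strands, and those of different motifs did not overlap each other in these promoters. They describe letters in a window and not binding.

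Over all 18 promoter regions together, H3K27ac covered 62.8%, 58.5% and 51.2% of bases and H3K4me1 20.9%, 25.5% and 10.0%. The groups did not overlap, with 57.5% ± 5.90 against 18.8% ± 7.96 (SD, n = 3; exact permutation test, two-sided, p = 0.1, Benjamini-Hochberg adjusted over 5 measures p = 0.125). A peak lay on 78.4%, 80.4% and 62.7% of the annotated starts for H3K27ac and on 25.5%, 19.6% and 3.92% for H3K4me1 (p = 0.1, adjusted p = 0.125, exact permutation test, n = 3). The number of regions with a peak was 13, 13 and 12 for H3K27ac and 10, 8 and 8 for H3K4me1, again without overlap (p = 0.1, adjusted p = 0.125, exact permutation test, n = 3). With 3 against 3 lists none of these tests can pass 0.05. Among lists that shared an IgG library, which allow no test, the covered share was 35.3 percentage points higher in the 1 H3K27ac list than in the mean of the 2 H3K4me1 lists with IgG replicate 2, and 41.2 higher in 1 list against 1 with IgG replicate 3. The difference of 38.7 percentage points shrank to 21.6 with promoter windows of 3 kb and to 22.3 with the starts of all transcripts, and with 3 kb windows the difference in regions with a peak shrank from 4 to 0.667.

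**Figure D2:**
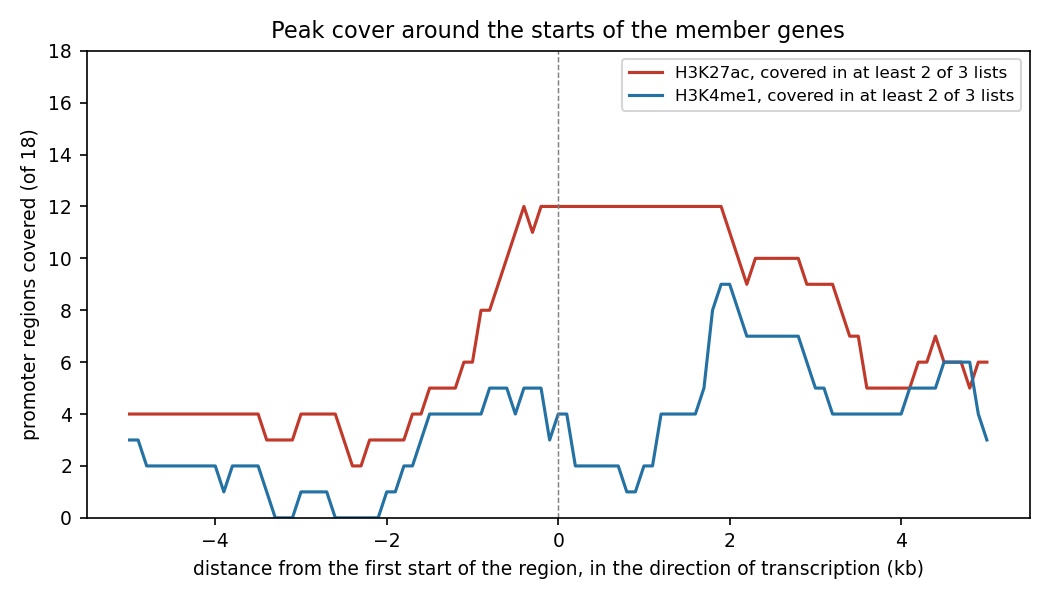
Number of the 18 promoter regions (y axis) covered by peaks in at least 2 of the 3 lists of a mark at each distance from the first start of the region (x axis, kb in the direction of transcription). H3K27ac is at 12 regions from the start to 1 kb downstream, while H3K4me1 is at 4 at the start, 2 at 1 kb and 9 at 2 kb.

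At the 18 promoter regions of these genes the marks were offset along the gene. At the first start of a region, H3K27ac lay in at least 2 of 3 lists at 12 of 18 regions and H3K4me1 at 4. At 500 bp downstream the counts were 12 and 2, and at 2000 bp downstream they were 11 and 9. Counts by distance were not computed over all promoter regions, so whether this offset differs from that at other genes was not tested. The median length of promoter H3K27ac peaks was 3985, 4926 and 2759.5 bp in replicates 1, 2 and 3, and that of promoter H3K4me1 peaks was 2537.5, 2015 and 927.5 bp. The lists did not overlap, but H3K27ac replicate 3 and H3K4me1 replicate 1 were close, and H3K4me1 replicate 3 was the shortest. The median fold of these peaks lay at the 92.1 to 94.8 percentile of its list for H3K27ac and at the 79.9 to 89.5 percentile for H3K4me1. Median lengths of intragenic peaks overlapped between the marks, at 937 to 1065 bp and 970 to 1100 bp.

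**Figure D3:**
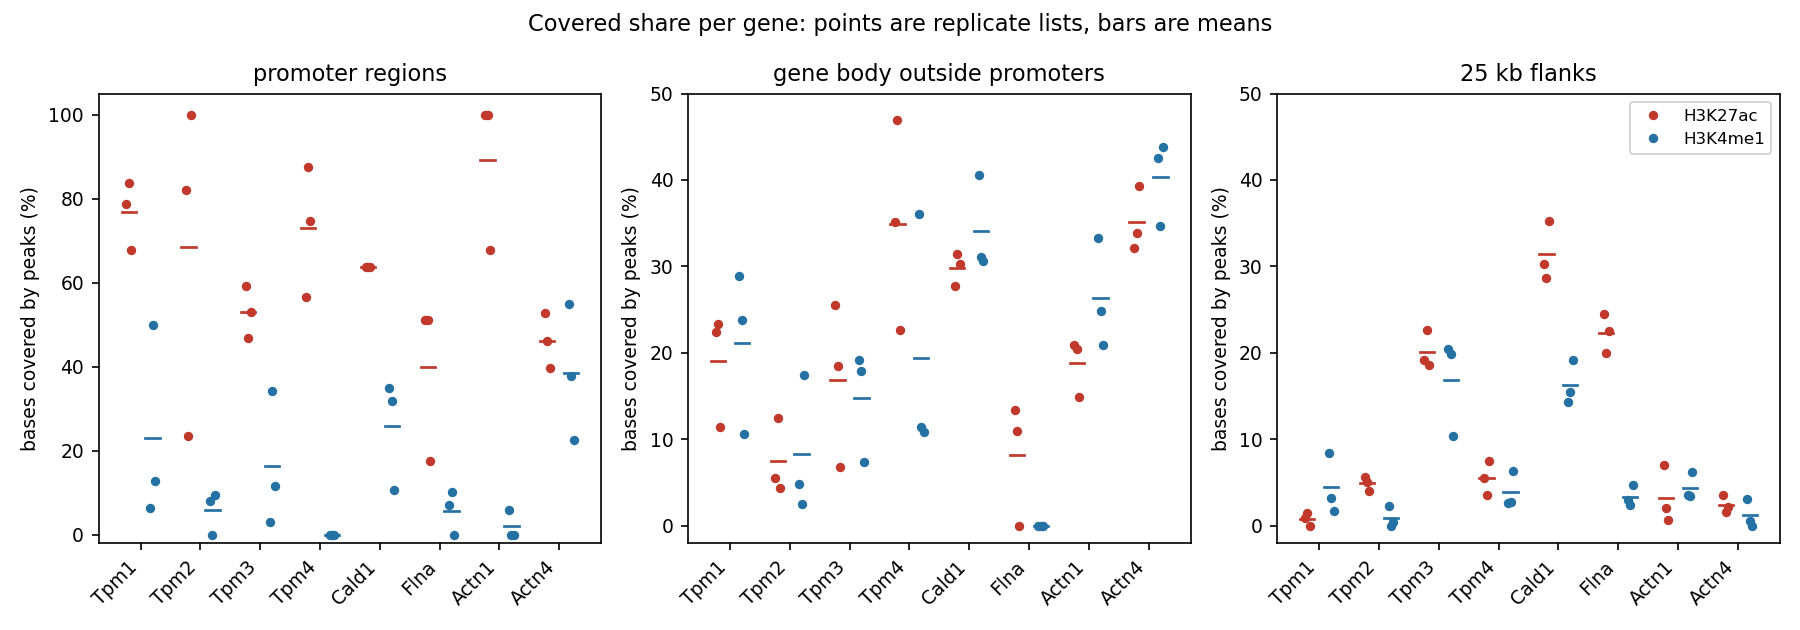
Percentage of bases covered by peaks (y axis) in the promoter regions, the rest of the gene body and the 25 kb flanks of each gene (x axis); points are the 3 replicate lists of each mark and bars their means. In the promoter panel the red H3K27ac points lie above all blue H3K4me1 points in every gene but Actn4, while in the gene bodies the marks overlap in every gene, and Flna has no H3K4me1.

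Per gene, every H3K27ac list exceeded every H3K4me1 list in promoter coverage in 7 of 8 genes, all but Actn4, and the reverse in 0 of 8. Over all genes these shares were 26.2% and 1.71%. The median promoter coverage of the 8 genes was 66.1% for H3K27ac and 11.1% for H3K4me1, against medians over all genes of 15.6% and 4.47%. Over the whole locus H3K27ac was above H3K4me1 without overlap in 3 genes, Tpm2, Tpm4 and Flna (17.2% of all genes). For Flna the values were 24.6%, 21.1% and 16.4% against 2.66%, 2.63% and 3.07%. The locus includes the flanks, where mean coverage of Flna was 22.3% for H3K27ac and 3.38% for H3K4me1. H3K27ac lay in all 3 lists on the promoters of Emd and Rpl10 near Flna, Ccdc107 near Tpm2 and Rab8a near Tpm4. Adjusted over all genes, the smallest p of the exact permutation test was 0.342, and 0 of 21853 genes had an unadjusted p under 0.05, which this design cannot give.

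In the gene bodies outside the promoters the marks did not separate, with 25.6% ± 1.94 for H3K27ac and 28.8% ± 5.04 for H3K4me1 (SD, n = 3; exact permutation test p = 0.5). All 8 genes lay above the median of all genes in H3K27ac (members' median 18.9%, all genes 1.65%) and 7 of 8 in H3K4me1 (20.3% and 1.76%). In 0 of 8 genes did the marks separate without overlap in either direction (H3K27ac higher in 4.12% and H3K4me1 higher in 13.2% of all genes). Actn4 had the highest mean for both marks, with 32.2%, 33.9% and 39.4% for H3K27ac and 42.6%, 34.7% and 43.8% for H3K4me1. For H3K27ac, Tpm4 (34.9% ± 12.1) differed from Actn4 by less than the SD, and Cald1 had 29.8% ± 1.92. For H3K4me1 Cald1 was second with 34.1% ± 5.56 and Tpm4 had 19.5% ± 14.4 (SD, n = 3). Flna was the exception for H3K4me1, with 0% in all 3 lists, against H3K27ac of 13.4%, 11.01% and 0%. Body coverage includes the parts of promoter peaks that ran past the 1 kb windows. Flna had 0 intragenic peaks in every list, so its H3K27ac here came from promoter peaks. Tpm3 in H3K27ac replicate 1 was alike, with 25.5% and 0 intragenic peaks.

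Within the gene body the marks lay mainly on the 5′ side of the midpoint. Coverage was higher there than on the 3′ side in all 6 lists in 6 of 8 genes, all but Cald1 and Flna (17.0% of all genes with sequence on both sides). In Tpm1 the 5′ side had 51.9%, 54.4% and 26.9% H3K27ac and the 3′ side 0.716%, 0.403% and 0%. In Actn4 the mean H3K27ac coverage was 59.0% ± 4.17 on the 5′ side and 10.6% ± 3.92 on the 3′ side. In Cald1 both sides were covered, with 31.6% ± 7.79 and 27.9% ± 7.87 (SD, n = 3), and its internal complete start lies on the 3′ side. The internal starts of Tpm1 and Tpm3 and the Actn4 start 12581 bp inside lie on the 5′ side. The Actn4 start 43119 bp inside lies on the 3′ side. Parts of promoter peaks that ran past the 1 kb windows are counted in these shares, and what they add was not tested.

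**Figure D4:**
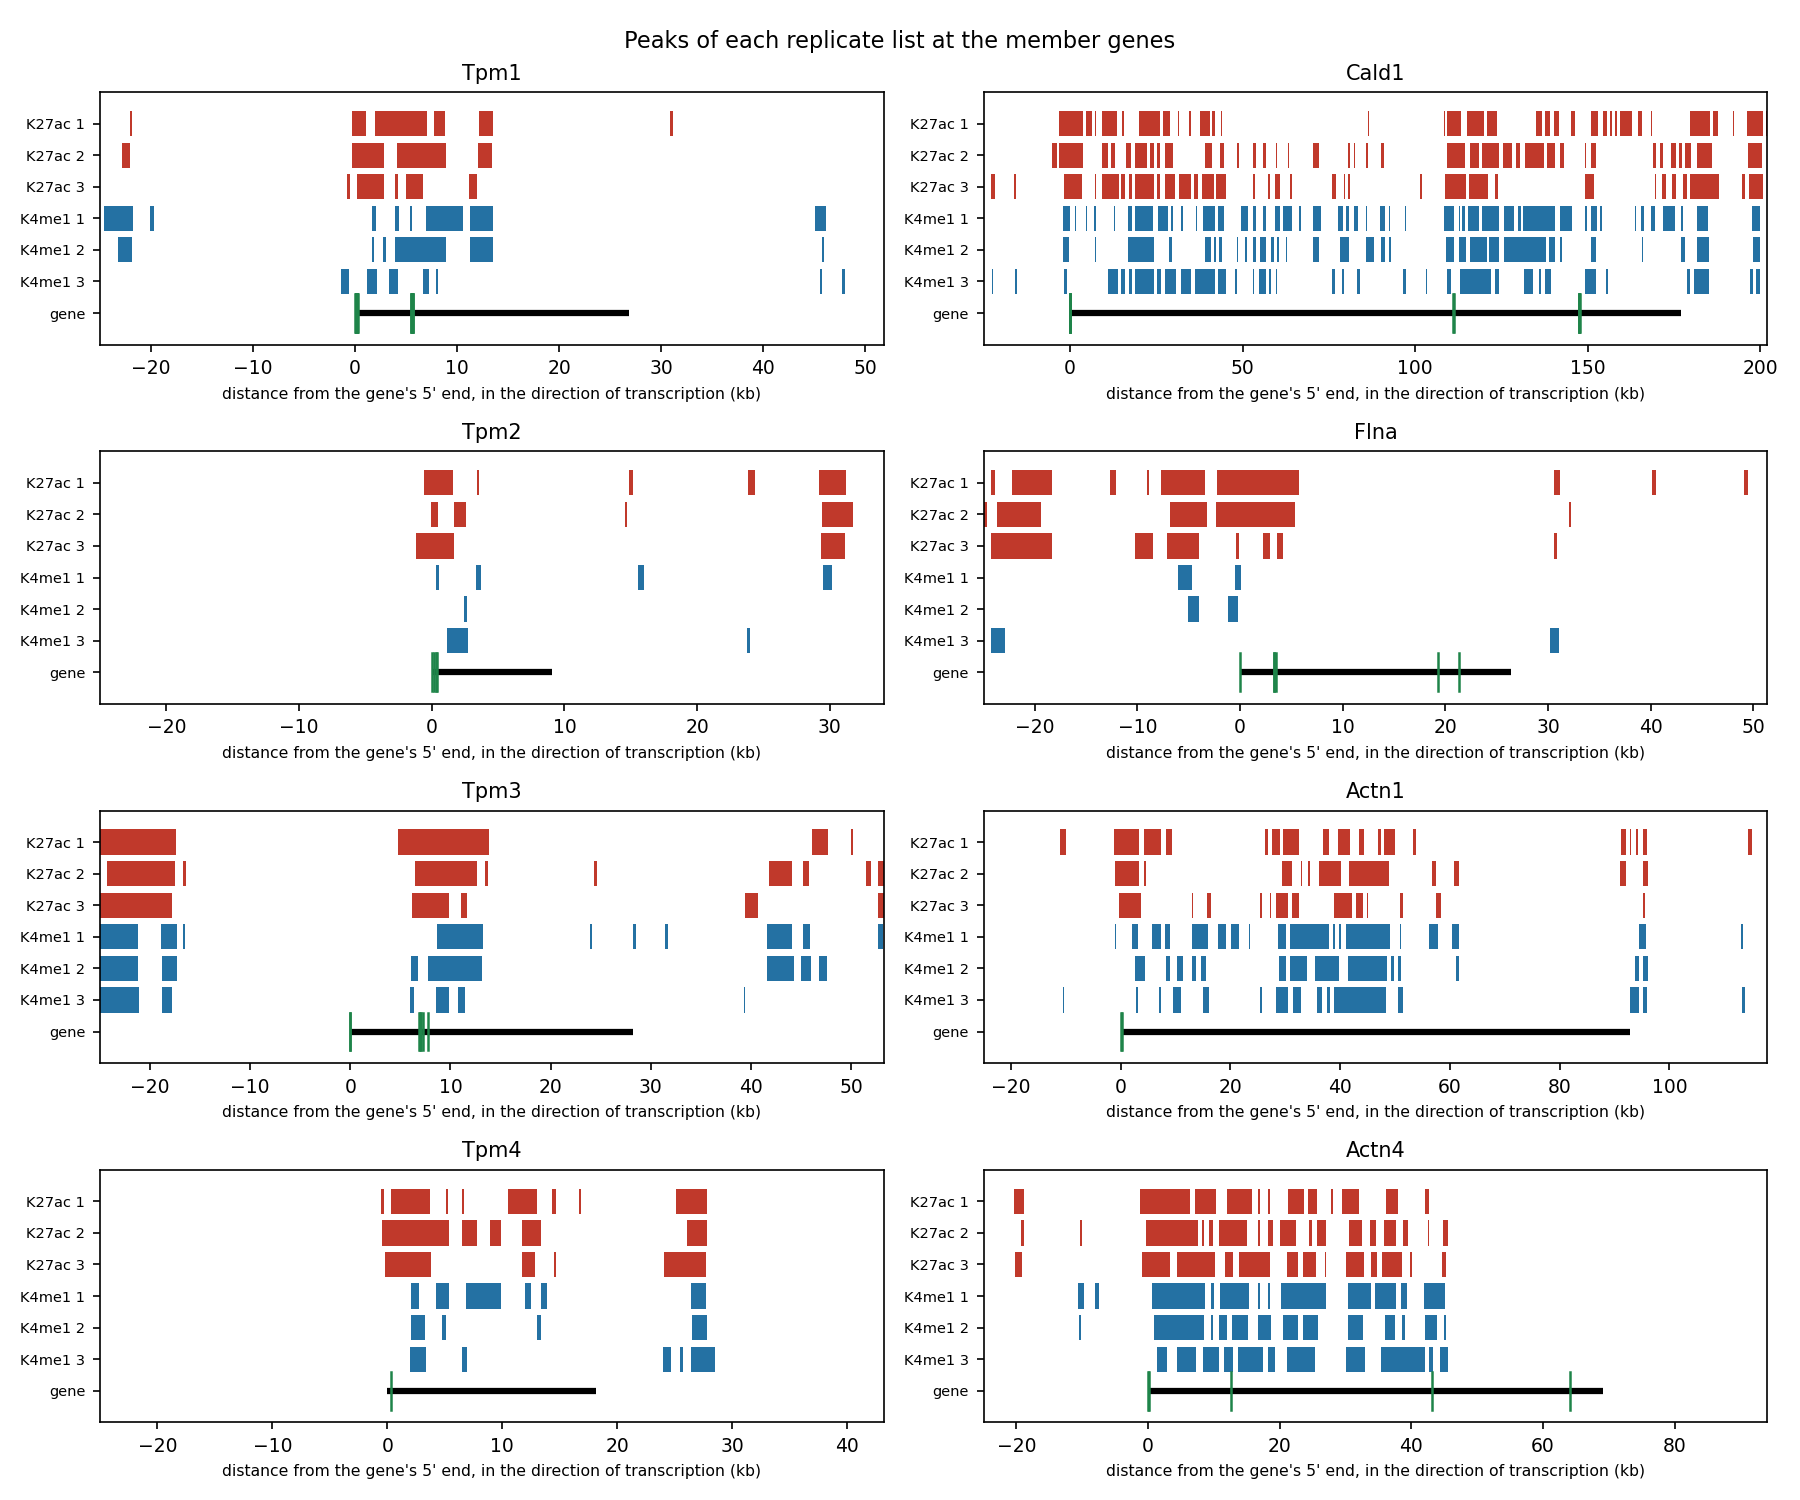
Peaks of the 3 H3K27ac (red) and 3 H3K4me1 (blue) replicate lists at each gene, by distance from the gene's 5′ end in kb; the black bar is the gene and green ticks are annotated starts of protein-coding transcripts. At Tpm3 the first tick has no peak above it and the internal ticks do, and at Actn4 the blocks of both marks end well before the 3′ end of the gene.

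Regions away from promoters that carried both marks were then listed: stretches covered by H3K27ac in at least 2 of 3 lists that touched such an H3K4me1 stretch and no promoter window of any protein-coding gene. There were 41 in the 8 loci, or 4.84 per 100 kb, against 1.43 per 100 kb over the genome. Taken per locus, the median of the 8 genes was 2.04 per 100 kb, against a median of 0 and an upper quartile of 1.99 over all coding loci. Any 2 H3K27ac lists were called against different IgG libraries, but H3K4me1 replicates 1 and 2 shared one and overlapped more within the loci (Jaccard index 0.554) than either did with replicate 3 (0.362 and 0.391). Cald1 held 21, Actn1 9, Actn4 8, Tpm1 2 and Tpm4 1, and Tpm2, Tpm3 and Flna held 0. Several neighboring regions lay within 1 longer peak of a list and are not independent. A peak of 1 list over such a region can also run into a promoter window. Under the −log10 p-value filter at 1.3 the count fell to 11, of which Actn4 held 5, Cald1 4, and Tpm1 and Actn1 1 each.

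Cald1 had 12 of its 21 in intron 1 and 5 in intron 3 of its transcript Cald1-202, Actn1 had 8 of 9 in intron 1 and Actn4 7 of 8 in intron 1. Intron 1 makes up 35.9% of the length of Cald1, 54.4% of Actn1 and 62.2% of Actn4. Per 100 kb of locus the density was 9.25 in Cald1, 6.72 in Actn4, 6.30 in Actn1, 2.60 in Tpm1 and 1.47 in Tpm4. The longest was the 8494 bp Cald1 region in intron 3 (chr6:34713989-34722482), 4355 bp from the nearest start. Its strongest peak in each list had 1.90-, 2.01- and 2.00-fold H3K27ac enrichment in replicates 1, 2 and 3 and 2.15-, 2.18- and 1.89-fold H3K4me1 enrichment, at the 89.4 to 99.3 percentile of their lists. In the pooled H3K27ac list this Cald1 region lay within a 16057 bp peak that also covered the internal Cald1 start. The region with the highest fold at these genes, 2.13 as the mean of the strongest peak of each list, was in intron 1 of Actn1 (chr12:80227925-80230959, 29132 bp from the start), with 2.21-, 1.95- and 2.14-fold H3K27ac and 2.23-, 1.96- and 2.28-fold H3K4me1. In Actn4 the highest was a 258 bp region in intron 1 (chr7:28945341-28945598) with a mean fold of 2.04.

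**Figure D5:**
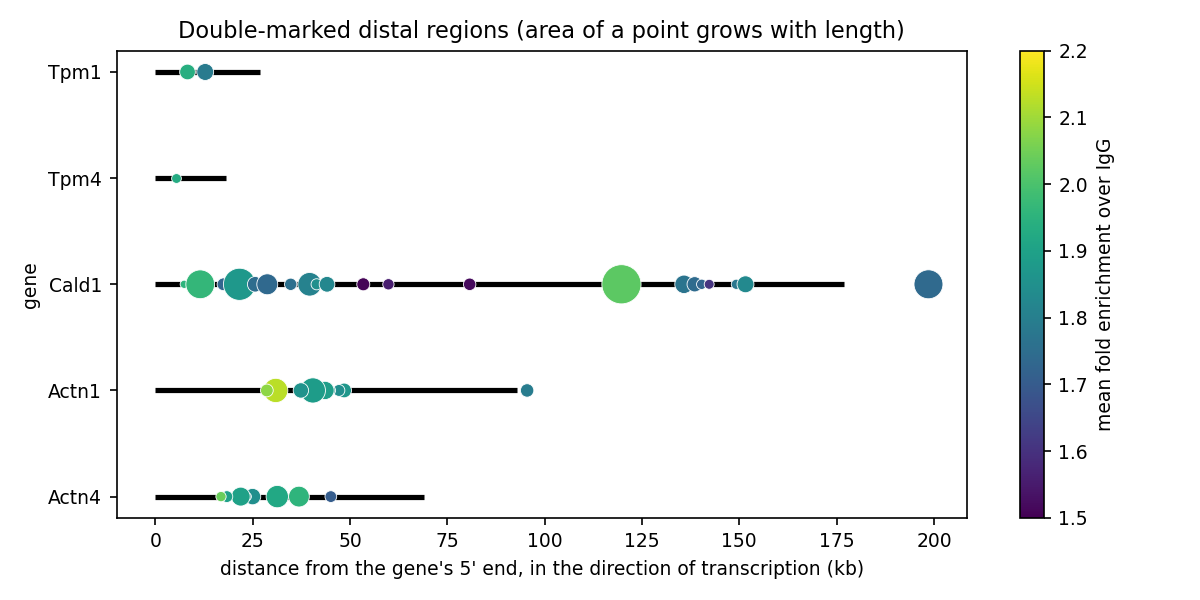
The 41 double-marked distal regions by distance from the gene's 5′ end (x axis, kb) at the 5 genes that had any; black bars are the genes, the area of a point grows with the length of the region and its color gives the fold enrichment over IgG of the strongest peak in it, averaged over the lists with a peak there. Cald1 has groups near both complete starts and 1 region beyond its 3′ end, and the Actn1 and Actn4 points lie between 16.9 and 48.5 kb, apart from 1 region past the end of Actn1.

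Sequence of 300 bases at the centers of 2 of these regions is shown, from the GRCm38.p6 genome and on the plus strand: the longest region (Cald1) and the one center at these genes that held a CArG box (Tpm1, chr9:67040607-67041671, 2038 bp from a start). Capitals mark the same 5 motifs as above.
Tpm1 intron 2, chr9:67040990-67041289: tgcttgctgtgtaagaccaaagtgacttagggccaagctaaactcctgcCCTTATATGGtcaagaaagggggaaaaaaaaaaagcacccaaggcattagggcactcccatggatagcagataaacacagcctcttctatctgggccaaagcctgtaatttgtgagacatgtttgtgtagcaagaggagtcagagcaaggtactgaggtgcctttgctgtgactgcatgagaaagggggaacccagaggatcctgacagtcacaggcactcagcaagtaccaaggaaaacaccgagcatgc
Cald1 intron 3, chr6:34718086-34718385: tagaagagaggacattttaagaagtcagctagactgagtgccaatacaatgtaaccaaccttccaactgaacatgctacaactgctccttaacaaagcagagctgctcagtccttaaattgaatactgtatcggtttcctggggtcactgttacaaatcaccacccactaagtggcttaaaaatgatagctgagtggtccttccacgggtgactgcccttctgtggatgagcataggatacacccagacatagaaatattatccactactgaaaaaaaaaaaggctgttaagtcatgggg
The Tpm1 region was acetylated in replicates 1 and 2 (1.89- and 1.95-fold) and carried H3K4me1 in all 3 (2.02-, 1.96- and 1.88-fold). The replicate 2 peaks of both marks there also covered the internal Tpm1 start, and the pooled H3K27ac peak covered both starts. Across the 41 centers the CArG box was found in 1, against 1.86% of the 39000 such centers in the genome. AP-1 letters were in 7 of 41 (17.1%, genome 13.5%), TEAD in 10 (24.4%, 16.8%), TATAAA in 11 (26.8%, 27.4%) and the GC box in 1 (2.44%, 3.26%).

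The flanks were covered more by H3K27ac than by H3K4me1, with 12.1%, 10.6% and 11.3% against 7.24%, 5.96% and 6.14% (p = 0.1, adjusted p = 0.125, exact permutation test, n = 3). Cald1 (31.4% ± 3.40), Flna (22.3% ± 2.26) and Tpm3 (20.1% ± 2.21, SD, n = 3) had the most H3K27ac in the flanks, and the mean was under 6% in the other 5. Every H3K27ac list exceeded every H3K4me1 list in the flanks of 3 of 8 genes, Tpm2, Cald1 and Flna (15.5% of all genes). Tpm1 was the one gene in which every H3K4me1 list exceeded every H3K27ac list, with 0.9%, 1.52% and 0% H3K27ac against 8.42%, 3.18% and 1.75% H3K4me1 (7.73% of all genes). In each replicate list 28.6% to 41.2% of the flanking peaks lay on the promoter of another protein-coding gene. Those in all 3 replicates of a mark were at Ccdc107 near Tpm2, Ubap2l and 4933434E20Rik near Tpm3, Rab8a near Tpm4, Agbl3 near Cald1, Emd and Rpl10 near Flna, and Eif3k and Map4k1 near Actn4. Emd, Rpl10, Eif3k and Map4k1 had H3K27ac in 3 of 3 lists; H3K4me1 was in 2 of 3 at Emd and in 0 of 3 at the others. Actn1, like Tpm1, had no promoter of another protein-coding gene within 25 kb.

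By H3K27ac coverage of the whole locus the order was Cald1 (31.1% ± 1.61), Actn4 (22.4% ± 1.43), Tpm3 (21.2% ± 3.60), Flna (20.7% ± 4.11), Tpm4 (14.8% ± 1.80), Actn1 (14.6% ± 3.36), Tpm1 (10.8% ± 2.94) and Tpm2 (7.81% ± 0.960; SD, n = 3). Neighbors in this order differed by less than the SD from Actn4 to Flna and between Tpm4 and Actn1. The locus includes the flanks, so peaks on promoters of other genes, such as Ubap2l near Tpm3 and Rpl10 near Flna, count in it. By H3K4me1, Cald1 (30.0% ± 4.05) and Actn4 (24.1% ± 3.18) were again first, and Flna (2.79% ± 0.244) fell to the seventh place before Tpm2 (2.08% ± 1.52), the last pair differing by less than the SD.

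Among the paralogs, Flnc, the muscle filamin, had 10.7% ± 0.869 H3K27ac and 3.08% ± 2.47 H3K4me1 in its gene body. Actn2 and Actn3, the α-actinins of striated muscle, had body coverage by H3K27ac of 0.215% ± 0.372 and 0% (SD, n = 3). Actn3 nevertheless had a promoter H3K27ac peak in all 3 lists, covering 5.45%, 8.05% and 43.0% of the region.

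In a wider list of 48 actin-binding and filament-associated genes, 35 had promoter H3K27ac in all 3 replicates (45.9% of all genes), 23 H3K4me1 (27.9%) and 20 both (24.3%). Among those with a peak in all 6 lists were Tmod3, a cap of the slow-growing filament end, the calponins Cnn2 and Cnn3, the bundling proteins Pls3 and Lcp1, and Lasp1, Fblim1, Palld, Synpo and Synpo2. The 5 with none were Tmod4, Lmod2, Tagln3, Mypn and Ldb3, of which Tmod4, Lmod2, Mypn and Ldb3 are known from striated muscle and Tagln3 from neurons. The median promoter coverage of the list was 42.5% for H3K27ac and 15.6% for H3K4me1, below the 8 genes for the first mark and above them for the second. Outside the list, the genes whose promoter and body coverage in the 6 lists came closest to the medians of the 8 genes, over 12 values, were Cemip2 (root mean square difference 6.47 percentage points), Zcchc9 (7.34), Rictor (7.35), Arid2 (7.38) and Polr3gl (7.44).

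Pooled lists, called on the 3 replicates of a mark together, gave H3K27ac at 13 of 18 promoter regions and H3K4me1 at 13, so the H3K4me1 count was more than that found in all 3 replicates (6). The pooled lists held 83 and 91 peaks at these loci, and the replicate lists 84 to 95 for H3K27ac and 80 to 107 for H3K4me1.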

How the data were processed

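Peak lists of the 3 H3K27ac and 3 H3K4me1 ChIC-Seq replicates and of each mark pooled were analysed; the 3 IgG samples entered only as controls of the calls. Per the labels, reads were trimmed with cutadapt and aligned with Bowtie2 to GRCm38.p5. Per the file headers, the authors ran MACS 2.2.7.1 on paired ends with broad calling, at p-value cutoffs of 0.05 (strong) and 0.1 (weak) and with the larger library scaled to the smaller. The deposited pileup is a coverage signal at IgG depth, the deposited fold enrichment is a ratio with 1 added to each side, and the deposited p-value is on the −log10 scale (the q-value column was not used here). Low IgG depth limits how finely calls resolve.

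Gene models were GENCODE mouse release 21 (GRCm38); starts were those of protein-coding transcripts. Covered share is the percentage of bases in the union of a list's peaks, 1 bp counted as overlap, and percentiles rank a peak's fold within its own list. Lists were compared by an exact two-sided permutation test over 20 assignments. RefSeq tables gave promoter sequences. The members, gene lists and tests were chosen with earlier results of these data known, and the split of gene bodies at the midpoint was added after the values were seen. Genes named singly were the members, their paralogs (1 is not reported here), up to 10 genes of the actin-binding list with a peak in all 6 lists and up to 10 with none, neighbors with a promoter peak in all 3 replicates, and the 5 closest profiles. Alternatives varied peak stringency, window, flank, overlap, transcript set, replicates and IgG library. Interval code was tested on simulated intervals (0 of 1200 checks wrong). Python 3.11.15, numpy 2.4.6 and pandas 2.3.3 were used.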

Additional observations from a re-analysis of the deposited data

How the results depend on the processing

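Of 221 alternative values over 20 results, 204 kept their direction or stayed within 1.5 times, 12 counts moved further and 5 differences reversed. Calls of H3K4me1 at promoters were the ones most dependent on the settings. Shares over all genes were not computed under the alternative settings. The count of promoter regions with H3K4me1 in all 3 replicates (6) became 1 when the −log10 p-value had to reach 1.3, 2 with windows of 250 bp, 10 (of 15 regions) with windows of 3 kb and 13 in the pooled list. The count with both marks (5) became 1, 1, 10 and 13 under the same settings and 3 with an overlap of at least 200 bp. The −log10 p-value filter also took double-marked distal regions from 41 to 11 and H3K4me1 genes of the actin-binding list from 23 to 11, and raised the genes with every H3K27ac list above every H3K4me1 list over the locus from 3 to 5. The locus differences of Tpm1 and Cald1, 0.20 and 1.10 percentage points, changed sign when 1 list was left out: Tpm1 ranged from −2.56 to 2.16, with −0.399 without H3K27ac replicate 1, −0.878 without H3K27ac replicate 2 and −2.56 without H3K4me1 replicate 3, and Cald1 from −0.105 (without H3K4me1 replicate 3; −0.0246 without replicate 2) to 3.44. The cause was not tested.

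Leaving out 1 list at a time, the difference in promoter coverage stayed between 34.3 and 42.0 percentage points and the double-marked regions between 31 and 38, and that in gene bodies (−3.21) ranged from −4.86 to −0.311, the latter without H3K4me1 replicate 1. Across the other settings the promoter coverage difference ranged from 21.6 (3 kb windows) to 49.2 (250 bp windows, and also starts with a complete 5′ end only). Gene bodies ranged from −5.18 (3 kb) to −1.40 (250 bp), and regions with a peak from 0.667 (3 kb) to 7.33 (250 bp). Without H3K4me1 replicate 3 the locus difference of Tpm3 went from 4.98 to 1.65, and without H3K4me1 replicate 1 that of Actn1 from −3.84 to −1.72 and that of Actn4 from −1.67 to −0.130. Leaving out starts of transcripts with an incomplete 5′ end, a choice made after seeing the data, kept 12 H3K27ac and 6 H3K4me1 regions, of 14. Same-numbered lists of the marks deviated together only in part (correlations 0.0223, 0.138 and 0.396 over 32 gene values). H3K27ac replicates 2 and 3 each correlated best with the H3K4me1 list of their own number, with which they shared an IgG library. H3K27ac replicate 1 correlated best with H3K4me1 replicate 2. These correlations cannot decide pairing. The numbers were not taken as pairs because the labels do not tie a number to an animal or day. With the replicate block, the exact sign-flip permutation test gave p = 0.25, the smallest it allows, for regions with a peak (difference 4), promoter coverage (38.7), flanks (4.90) and starts (57.5), and p = 0.5 for gene bodies (−3.21).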
